A study of Mus musculus with 6 samples.

Results

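Chemokines and their receptors were followed in RNA sequencing of endothelial cells from the brains of adult mice. The genes were all symbols that begin with Ccl, Cxcl, Ccr, Cxcr or Ackr followed by a digit, plus Cx3cl1 and Darc. Of 57 such symbols among the 23329 in each file, 48 reached a summed count of 10 over the 6 libraries, 31 of them ligands and 17 receptors. Of the other 9 symbols, 3 had no count in any library and the rest had at most 7 summed counts. The files use older names for 2 of the 48 genes: Cxcr7 is now Ackr3, and Darc is now Ackr1.

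The group labelled GLUT1EC-/- held 3 libraries from mice in which the gene of the glucose carrier GLUT1, Slc2a1, is knocked out specifically in endothelial cells. Its control held 3 libraries from wild-type (WT) littermates. All animals were C57BL/6 mice, 8 weeks old, and each library carried its own animal number. Cells were taken from the brain by magnetic bead sorting (MACS) and went into RNA lysis buffer uncultured. The driver of the deletion and its timing are not given in the sources used here.

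Chemokines are small secreted proteins that steer the migration of leukocytes and other cells along their gradients. They act through receptors that couple to inhibitory G proteins, while atypical receptors take chemokines up or carry them without that coupling. Endothelial cells make some of them, hold others on their surface and present them to passing leukocytes. CXCL12 keeps CXCR4-bearing cells in place in marrow and along vessels, and inflammatory CC chemokines recruit monocytes and T cells.

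Total counts were 35323299 to 37868681 in the GLUT1EC-/- libraries and 31874662 to 39424384 in the WT libraries. Library GLUT1EC-/- 2 stood apart, with a trimmed-mean (TMM) scaling factor of 0.884 against 1.01 to 1.05 in the other libraries. Slc2a1 itself was at 3735, 5414 and 3893 CPM (counts scaled to library size, with TMM factors) in the GLUT1EC-/- libraries, against 3984, 4479 and 4172 CPM in the WT libraries. Its count therefore did not separate the groups, and every direction below is between libraries as labelled. A list of 14 endothelial identity genes summed to 19357 to 22355 CPM in the GLUT1EC-/- libraries and 19918 to 22085 CPM in the WT libraries; 0 of 14 were called by edgeR or DESeq2, and 3 had an unadjusted p under 0.05 by edgeR. Animal numbers fall into the 200s (GLUT1EC-/- 1, WT 1 and WT 2) and the 500s (GLUT1EC-/- 2, GLUT1EC-/- 3 and WT 3), and what the series stands for is not in the labels.

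Cxcl12 fell and Cxcl16 rose in the GLUT1EC-/- libraries. These were the calls among the 39 genes of the family that passed the filter on low counts, 1 higher and 1 lower, by edgeR's quasi-likelihood test with a Benjamini-Hochberg adjusted p under 0.05. Over all 14838 genes tested, 1.31% were called, 0.863% higher and 0.445% lower. By value the 39 genes divided evenly, 19 higher and 20 lower, with a median log2 fold change of -0.0047 against 0.014 over all genes tested. In 10 of the 39 genes all GLUT1EC-/- libraries were above all WT libraries and in 9 they were below, a share of 48.7%. Over all genes tested the groups did not overlap in 22.9%, 11.7% higher and 11.2% lower. In 17 of the 39 genes the unadjusted p was under 0.05, against 14.5% of all genes tested. Ccl8 and Ccl28 are among the 10, Cxcl11 is among the 9, and all of them are among the 17. Each reached the level of the filter in all libraries of only the group where it was higher. DESeq2 was run without that filter, on all 48 genes of the family, 2 of which had no adjusted p. It called 8 higher and 4 lower among them, against 5.5% of all genes with an adjusted p, 3.23% higher and 2.27% lower.

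**Figure D1:**
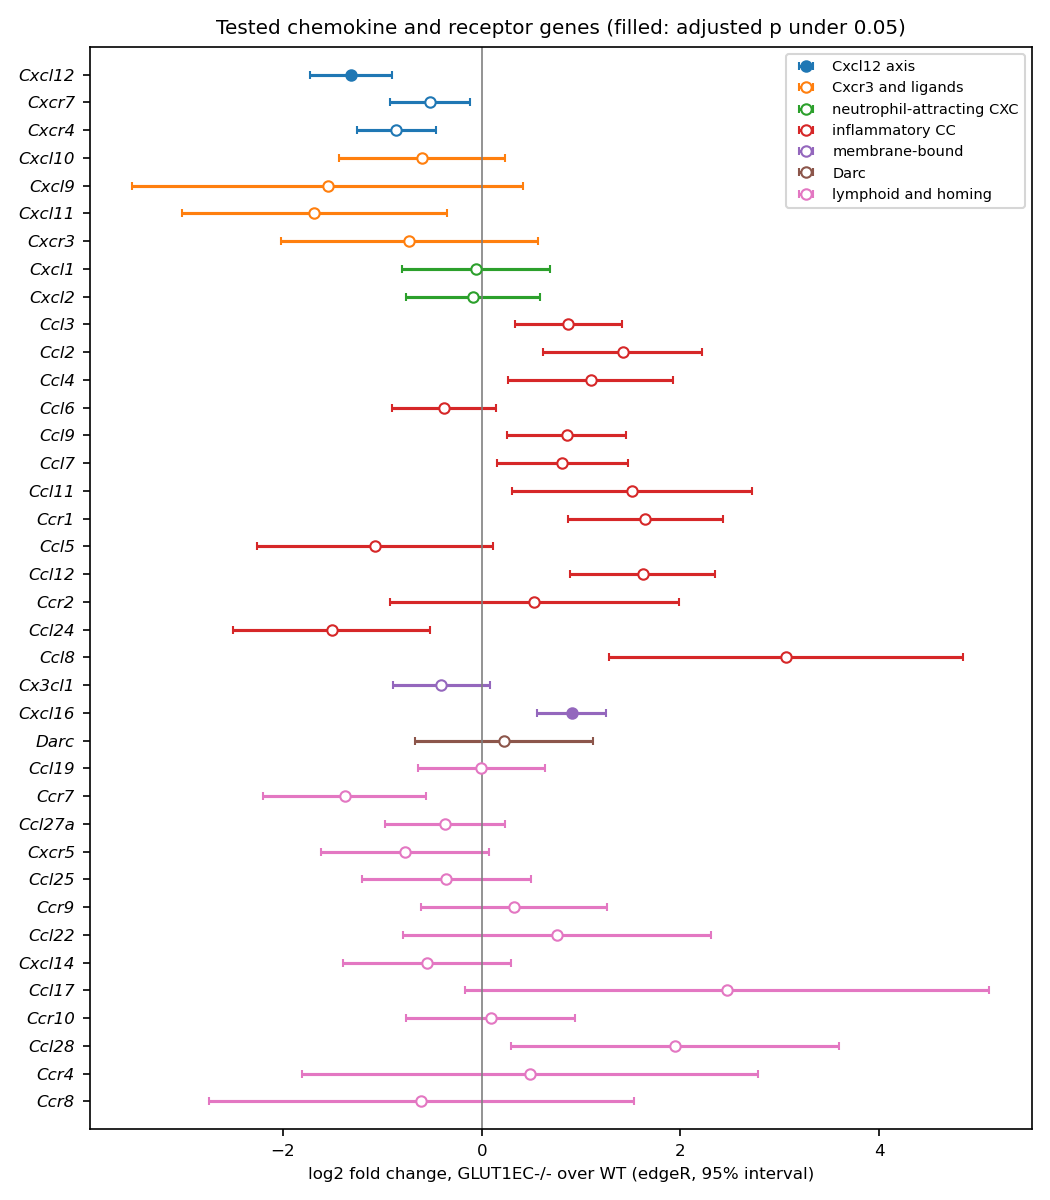
Log2 fold changes (x axis, GLUT1EC-/- over WT) of 38 of the 39 tested genes, one row each, with edgeR 95% intervals and colours for the groups of the text. Filled points mark the called genes, Cxcl12 at -1.32 and Cxcl16 at 0.90. The widest intervals are those of Ccl17, Ccr4 and Ccr8, genes with few counts.

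Levels of different genes were compared per kilobase of exon, as TPM, counts per exon length scaled to the same total in each library. Cxcl1, a neutrophil attractant, was the most abundant per length, at 995 ± 441 TPM in GLUT1EC-/- and 1103 ± 79.2 TPM in WT (SD, n = 3 each). Cxcl12 was the third in GLUT1EC-/-, at 231 ± 25.3 TPM, and the second in WT, at 597 ± 147 TPM. Darc, next to it in both groups, was at 406 ± 156 TPM in GLUT1EC-/- and 366 ± 146 TPM in WT, and its libraries overlapped with those of Cxcl12 in each group. The length of Cxcl12 was taken over all its exons, 7160 bases. Over its shortest coding transcript, 1878 bases, Cxcl12 would stand at 882 TPM in GLUT1EC-/- and 2274 TPM in WT, so its place in the order depends on the isoform. By CPM, 6 of the 48 genes averaged at least 100 CPM over the 6 libraries, 23 averaged 1 to 100 CPM and 19 less than 1 CPM.

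Cxcl12 encodes the ligand of CXCR4 and of the atypical receptor CXCR7 (ACKR3). Its gene runs along the plus strand of GRCm38 chromosome 6, 117168535 to 117181367, and shares exon positions with no other annotated gene. Its level was 580.2, 547 and 563 CPM in GLUT1EC-/- 1 to 3, against 1779, 1213 and 1218 CPM in WT 1 to 3. The GLUT1EC-/- libraries lay close together and all below the WT libraries, and WT 1 was the highest. Means were 564 ± 16.5 CPM in GLUT1EC-/- and 1404 ± 325 CPM in WT (SD, n = 3 each), or 0.402 times the WT level (95% interval 0.301 to 0.535; log2 fold change -1.32, SE 0.18, adjusted p by edgeR = 0.0206). Cxcl12 made up 35.2%, 24.0% and 38.0% of all counts of the family in the GLUT1EC-/- libraries, against 60.1%, 46.2% and 45.9% in the WT libraries.

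The fall of Cxcl12 was of similar size with libraries scaled to the summed counts of the 14 endothelial identity genes, with a log2 fold change of -1.27 (adjusted p by edgeR = 0.0322). Other cell types also make Cxcl12, and fewer cells of a type and less RNA per cell cannot be told apart in these bulk libraries. Of 10 fibroblast markers 1 rose by edgeR (Dcn), DESeq2 called 4 higher, 7 had an unadjusted p under 0.05, all higher, and the median log2 fold change was 0.85. They summed to 372 to 684 CPM in GLUT1EC-/- and 380.1 to 529.7 CPM in WT, and the most abundant of them, Igf2, was the 1 that was lower by value, at 245 CPM in GLUT1EC-/- and 338 CPM in WT. Of 10 pericyte markers 0 were called by edgeR, 4 had an unadjusted p under 0.05 and DESeq2 called 1, and they summed to 1556 to 1949.9 CPM in GLUT1EC-/- and 1305 to 1534 CPM in WT. No marker of either list was at 0, and their part in the result was not tested. Among 12 arterial endothelial markers 2 rose by edgeR (Mgp and Fbln5) and 1 fell (Gkn3), with log2 fold changes of 1.40, 1.33 and -3.59. By value 7 were higher and 5 lower, and DESeq2 called 3 higher and 2 lower (Gkn3 and Vegfc). The 12 summed to 2224 to 2734 CPM in GLUT1EC-/- and 1710.4 to 2165.7 CPM in WT. Mgp alone averaged 728 CPM in GLUT1EC-/- and 275 CPM in WT. The higher sums therefore do not show a rise of the arterial markers as a set.

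The call on Cxcl12 was lost when GLUT1EC-/- 1 or any WT library was left out. Calls over all genes were then 32 without GLUT1EC-/- 1 and 0, 1 and 5 without WT 1, WT 2 and WT 3, against 194 with all libraries. The log2 fold change of Cxcl12 was -1.34 without GLUT1EC-/- 1, and -1.12, -1.41 and -1.41 without WT 1, WT 2 and WT 3, with adjusted p by edgeR = 0.0739, 0.121, 0.0884 and 0.0759. It was -1.34 within the 200s and -1.13 within the 500s, and with the number series as a term it was -1.25 (adjusted p by edgeR = 0.0934).

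Sequences before the transcription start are shown for Cxcl12 and Cxcr4 because ligand and receptor were both below WT in every GLUT1EC-/- library. Each run holds the 250 bases before the start in RefSeq's GRCm38.p6 annotation, 5′ to 3′ on the gene's strand. Capitals mark the GC box (GGGCGG) and the TATA box (TATAAA), searched on both strands, where neighbouring matches may overlap. The first is chr6:117168285-117168534 on the plus strand and the second chr1:128592300-128592549 on the minus strand.
Cxcl12: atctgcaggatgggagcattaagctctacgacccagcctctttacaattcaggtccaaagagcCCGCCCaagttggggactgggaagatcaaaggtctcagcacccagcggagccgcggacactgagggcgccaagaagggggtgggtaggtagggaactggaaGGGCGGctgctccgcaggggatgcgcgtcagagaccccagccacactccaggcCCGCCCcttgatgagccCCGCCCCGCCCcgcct
Cxcr4: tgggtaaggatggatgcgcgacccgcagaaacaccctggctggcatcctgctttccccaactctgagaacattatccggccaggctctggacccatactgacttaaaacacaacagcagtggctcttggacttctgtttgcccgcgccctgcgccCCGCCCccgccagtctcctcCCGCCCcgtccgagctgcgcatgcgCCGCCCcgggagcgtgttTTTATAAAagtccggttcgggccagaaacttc
The Cxcl12 window held 5 GC boxes and no TATA box, and 64.4% of its bases were G or C. The Cxcr4 window held 3 GC boxes, a TATA box that reads on both strands, and 61.2% G or C. Cxcr7 was also below WT in every GLUT1EC-/- library. Its window, not printed here, held 1 GC box, 1 TATA box and 54.0% G or C. GC boxes were found in 32.7% of all 32851 RefSeq windows of this kind and TATA boxes in 12.4%, and the median window had 52.4% G or C. Of the 48 genes, 35 had such a window.

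Both receptors of CXCL12 were lower by value, and neither passed. Cxcr4, the signalling receptor, was at 25.6, 25.1 and 19.5 CPM in the GLUT1EC-/- libraries, against 40.7, 50.1 and 36.5 CPM in the WT libraries. The groups did not overlap, and the log2 fold change was -0.86 (SE 0.17, 95% interval of the fold 0.418 to 0.726, adjusted p by edgeR = 0.0598). Its adjusted p was 0.00182 by DESeq2, and 0.0165 by edgeR without GLUT1EC-/- 2. Without that library 862 of all genes tested were called, against 194 with all libraries. Cxcr7, the receptor that takes CXCL12 up for degradation, was at 88.5, 124 and 116 CPM in GLUT1EC-/-, against 137, 153 and 182 CPM in WT. These groups did not overlap either, with a log2 fold change of -0.52 (SE 0.17, adjusted p by edgeR = 0.221). Within the 200s and the 500s, Cxcr4 stood at -0.82 and -0.72 on the log2 scale and Cxcr7 at -0.71 and -0.60.

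Per length, Cxcr7 was the more abundant receptor, at 104 ± 14.4 TPM in GLUT1EC-/- and 156 ± 19.6 TPM in WT. Cxcr4 was at 37.9 ± 5.12 TPM in GLUT1EC-/- and 71.5 ± 12.8 TPM in WT (SD, n = 3 each). The ligand was compared with each receptor inside a library, where scaling cancels. The count of Cxcl12 was 22.7, 21.8 and 28.9 times that of Cxcr4 in the GLUT1EC-/- libraries, against 43.7, 24.2 and 33.4 times in the WT libraries. These ranges overlapped, with a difference of -0.44 on the log2 scale (exact two-sided permutation p = 0.2). Against Cxcr7 the count of Cxcl12 was 6.56, 4.40 and 4.86 times as high in GLUT1EC-/-, and 13.03, 7.94 and 6.68 times in WT. Here the difference was -0.77 on the log2 scale (exact two-sided permutation p = 0.1, the smallest that 3 against 3 libraries can give), and GLUT1EC-/- 1 and WT 3 lay next to each other. Dpp4, a membrane peptidase that inactivates CXCL12, was at 11.8 ± 4.35 CPM in GLUT1EC-/- and 30.9 ± 4.15 CPM in WT (log2 fold change -1.38, adjusted p by edgeR = 0.057).

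**Figure D2:**
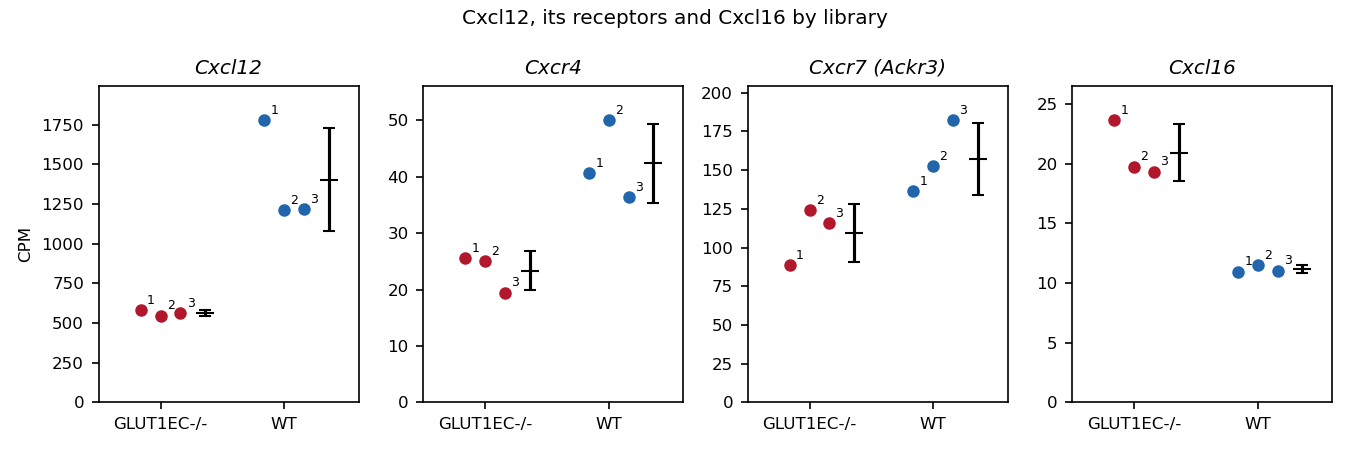
CPM (y axis, from 0) of Cxcl12, its receptors Cxcr4 and Cxcr7, and Cxcl16 in each library, with replicate numbers, GLUT1EC-/- on the left and WT on the right. Black bars are the mean ± SD over 3 libraries, and the groups overlap in no panel.

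CXCL16 and CX3CL1 differ from other chemokines in that they are made as transmembrane proteins, which can be shed. Cxcl16, which also acts as a scavenger receptor for oxidised lipoprotein, was at 23.7, 19.7 and 19.3 CPM in the GLUT1EC-/- libraries, against 11.0, 11.5 and 11.0 CPM in the WT libraries. The WT libraries were nearly alike and all GLUT1EC-/- libraries were above them. The level was 1.87 times that of WT (95% interval 1.47 to 2.38; log2 fold change 0.90, SE 0.15, adjusted p by edgeR = 0.0367), and the log2 difference was 1.07 within the 200s and 0.82 within the 500s. Without GLUT1EC-/- 1 and without each WT library, log2 fold changes were 0.81 to 0.93 and adjusted p by edgeR = 0.135 to 0.252. At most 32 of all genes tested were called in these settings, and the call on Cxcl16 was lost. It was also lost with endothelial identity scaling (0.95, adjusted p by edgeR = 0.054), with library size alone (0.86, adjusted p by edgeR = 0.0744), with the number series as a term (0.95, adjusted p by edgeR = 0.0995) and with sex as a term (0.90, adjusted p by edgeR = 0.0628).

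Cxcl16 lies on chromosome 11 and its exons overlap those of Zmynd15 on the other strand. Zmynd15 was at 2.34 CPM in GLUT1EC-/- and 1.61 CPM in WT on average, and the strand setting of the count is not given in the sources used here. Macrophages and microglia also express Cxcl16. Of 15 microglia markers 3 rose by edgeR (C1qb, C1qc and Trem2) and DESeq2 called 5, all higher. An unadjusted p under 0.05 was found for 9, all higher. By value 13 were higher and 2 lower, P2ry12 and Siglech (log2 fold changes -0.08 and -0.05). The 15 summed to 823 to 1848 CPM in GLUT1EC-/- and 562 to 663 CPM in WT, with none at 0. C1qa, C1qb and C1qc averaged 207, 194 and 211 CPM in GLUT1EC-/-, against 67.9, 69.1 and 63.6 CPM in WT. The groups did not overlap in 5 of the 15, all higher, a share of 33.3% against 22.9% of all genes tested. In GLUT1EC-/- 2, Cx3cr1 (16.4 CPM), P2ry12 (10.7 CPM), Tmem119, Gpr34, Fcrls and Olfml3 were below every WT library. The part of macrophages and microglia in the result was not tested.

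Cxcr6, the receptor of CXCL16 on T cells, did not pass the filter on low counts. It had 76, 5 and 7 counts in the GLUT1EC-/- libraries and 5, 4 and 10 counts in the WT libraries, so GLUT1EC-/- 1 alone stood out. Cx3cl1, fractalkine, was one of the most abundant chemokines, at 207, 334 and 194 CPM in GLUT1EC-/-, against 324, 344 and 305 CPM in WT. GLUT1EC-/- 2 lay within the WT range and the other 2 below it, with a log2 fold change of -0.41 (SE 0.21, adjusted p by edgeR = 0.446). Without GLUT1EC-/- 2, where 862 of all genes tested were called against 194 with all libraries, it was -0.70 (adjusted p by edgeR = 0.00833). Its receptor Cx3cr1, a marker of microglia, averaged 46.9 CPM in GLUT1EC-/- and 27.3 CPM in WT (log2 fold change 0.78, adjusted p by edgeR = 0.478).

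Among inflammatory CC chemokines and their receptors, 0 of 14 tested genes passed by edgeR, 9 had an unadjusted p under 0.05 in the higher direction and 1 in the lower, and DESeq2 called 7 higher and 1 lower. Ccl8 is in both counts of higher genes and passed the filter on low counts only through the GLUT1EC-/- libraries, where it was high. Over all genes tested, 8.16% had an unadjusted p under 0.05 and were higher, and 6.31% were lower. The median log2 fold change was 0.86. The 14 genes summed with Ccr3 to 107, 129 and 121 CPM in the GLUT1EC-/- libraries, against 49.6, 75.5 and 72.0 CPM in the WT libraries, so the groups did not overlap.

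Ccl2, Ccl7, Ccl11, Ccl12 and Ccl8 lie side by side within 81.2 kb of chromosome 11 (GRCm38, 82035571 to 82116799). All 5 were higher by value with an unadjusted p under 0.05, against 8.16% of all genes tested. Ccl8 passed the filter on low counts only through the GLUT1EC-/- libraries, where it was high. The 5 genes encode attractants of monocytes (CCL2, CCL7, CCL12 and CCL8) and of eosinophils (CCL11). Ccl2, a ligand of CCR2, was at 19.8, 40.3 and 17.1 CPM in GLUT1EC-/-, against 6.87, 11.5 and 10.5 CPM in WT. All GLUT1EC-/- libraries were above all WT libraries and GLUT1EC-/- 2 was the highest, with a log2 fold change of 1.42 (SE 0.35, adjusted p by edgeR = 0.107). Leaving out GLUT1EC-/- 2 gave 0.93 and leaving out GLUT1EC-/- 3 gave 1.64, and the call was made in both cases (adjusted p by edgeR = 0.0334 and 0.0499). Over all genes tested, 862 and 283 were called in these cases, against 194 with all libraries.

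Ccl12, also known as MCP-5, was at 3.55, 3.32 and 3.17 CPM in GLUT1EC-/-, against 0.743, 1.43 and 1.08 CPM in WT. The GLUT1EC-/- libraries differed little among themselves and lay above WT, with a log2 fold change of 1.62 (SE 0.32, adjusted p by edgeR = 0.0547). Ccl8 had 57, 54 and 38 counts in GLUT1EC-/-, against 2, 14 and 1 counts in WT, the largest fitted rise in the family (log2 fold change 3.06, SE 0.78, adjusted p by edgeR = 0.121). Without WT 2 its log2 fold change was 4.93. Ccl7 and Ccl11 had log2 fold changes of 0.81 and 1.51, and in Ccl11 GLUT1EC-/- 3, at 1.65 CPM, lay below WT 2, at 1.81 CPM. All 5 genes were higher within each number series, by 0.76 (Ccl7) to 2.72 (Ccl8) on the log2 scale in the 200s and by 0.91 (Ccl7) to 4.07 (Ccl8) in the 500s.

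The windows before the starts of Ccl12 and Ccl8 are shown because these neighbours had the steepest differences of the cluster, chr11:82101595-82101844 and chr11:82114935-82115184, both on the plus strand. Capitals mark the TATA box (TATAAA).
Ccl12: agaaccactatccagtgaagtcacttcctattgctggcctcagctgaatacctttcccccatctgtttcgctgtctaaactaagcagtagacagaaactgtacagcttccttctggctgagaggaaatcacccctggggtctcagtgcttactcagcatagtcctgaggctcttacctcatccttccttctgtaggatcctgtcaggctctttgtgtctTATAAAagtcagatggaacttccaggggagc
Ccl8: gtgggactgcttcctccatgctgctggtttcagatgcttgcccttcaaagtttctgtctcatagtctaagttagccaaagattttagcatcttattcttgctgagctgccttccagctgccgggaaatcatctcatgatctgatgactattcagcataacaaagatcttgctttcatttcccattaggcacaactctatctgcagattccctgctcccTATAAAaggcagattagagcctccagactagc
The TATA box begins 31 bases before the start in Ccl12 and 32 bases before it in Ccl8. Neither window held a GC box (GGGCGG), and 48.4% of the bases in Ccl12 and 44.8% in Ccl8 were G or C.

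Ccr1, a receptor of CCL3, CCL5 and CCL9 on myeloid cells, was at 4.57, 4.09 and 3.01 CPM in GLUT1EC-/-, against 1.02, 0.935 and 1.75 CPM in WT. The groups did not overlap, and the log2 fold change was 1.65 (SE 0.34, adjusted p by edgeR = 0.0651; adjusted p = 0.000282 by DESeq2). Ccr2, the receptor of CCL2, was at 3.86, 0.538 and 2.60 CPM in GLUT1EC-/-, against 1.67, 0.935 and 2.24 CPM in WT. It was higher in GLUT1EC-/- 1 and 3 than in any WT library and lowest of all in GLUT1EC-/- 2 (log2 fold change 0.53, SE 0.63, adjusted p by edgeR = 0.734). The number series differed in sign for Ccr2, which differed by 1.58 within the 200s but by -0.87 within the 500s, whereas Ccr1 was higher in both, by 2.16 and 0.98.

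In a second run of CC genes on chromosome 11 (83525778 to 83664683), neighbours went in different directions. Ccl3 and Ccl4, attractants that microglia and other myeloid cells make, were higher by value. Ccl3 was at 33.1, 43.1 and 49.5 CPM in GLUT1EC-/-, against 15.9, 26.7 and 26.1 CPM in WT, with no overlap (log2 fold change 0.87, SE 0.23, adjusted p by edgeR = 0.137). Ccl4 and Ccl9, a macrophage chemokine, had log2 fold changes of 1.10 and 0.85. Ccl5, a chemokine of T cells, and Ccl6 had log2 fold changes of -1.07 and -0.38. In all 5 genes of this run the groups did not overlap, against 22.9% of all genes tested, and none was called by edgeR. The gap was narrow in Ccl5, with GLUT1EC-/- 2 at 2.241 CPM and WT 2 at 2.249 CPM. In Ccl6 it lay between GLUT1EC-/- 3, at 6.50 CPM, and WT 3, at 6.63 CPM.

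Ccl24, an eosinophil attractant of tissue macrophages, was at 0.705, 0.807 and 0.406 CPM in GLUT1EC-/-, against 1.08, 2.19 and 2.19 CPM in WT. It was the 1 inflammatory CC gene with an unadjusted p under 0.05 in the lower direction (log2 fold change -1.51, SE 0.43, adjusted p by edgeR = 0.158). The markers of myeloid cells did not all go one way. The microglia sums are given above, and 8 border macrophage markers, of which edgeR called 0 (4 with an unadjusted p under 0.05) and DESeq2 2 higher and 1 lower, summed to 455 to 647 CPM in GLUT1EC-/- and 371 to 434 CPM in WT. Of 12 monocyte markers 2 rose (Fn1 and Ace) and 4 fell (Itgal, Cd300e, Emr4 and Treml4). Cd300e, Emr4 and Treml4 reached the level of the filter on low counts in all WT libraries but not in all GLUT1EC-/- libraries. They therefore passed it through the group where they were higher. All 12 summed to 11326 to 12254 CPM in GLUT1EC-/- and 7309 to 7827 CPM in WT. Most of that sum was Fn1, Nr4a1 and Ace, which endothelial cells also express. Leaving these out, the other 9 summed to 9.14 to 23.4 CPM in GLUT1EC-/- and 63.6 to 180.5 CPM in WT. Chi3l3, among the 9, was higher by value (log2 fold change 1.43). No marker of these 3 lists was at 0, and their part in the CC chemokine differences was not tested.

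**Figure D3:**
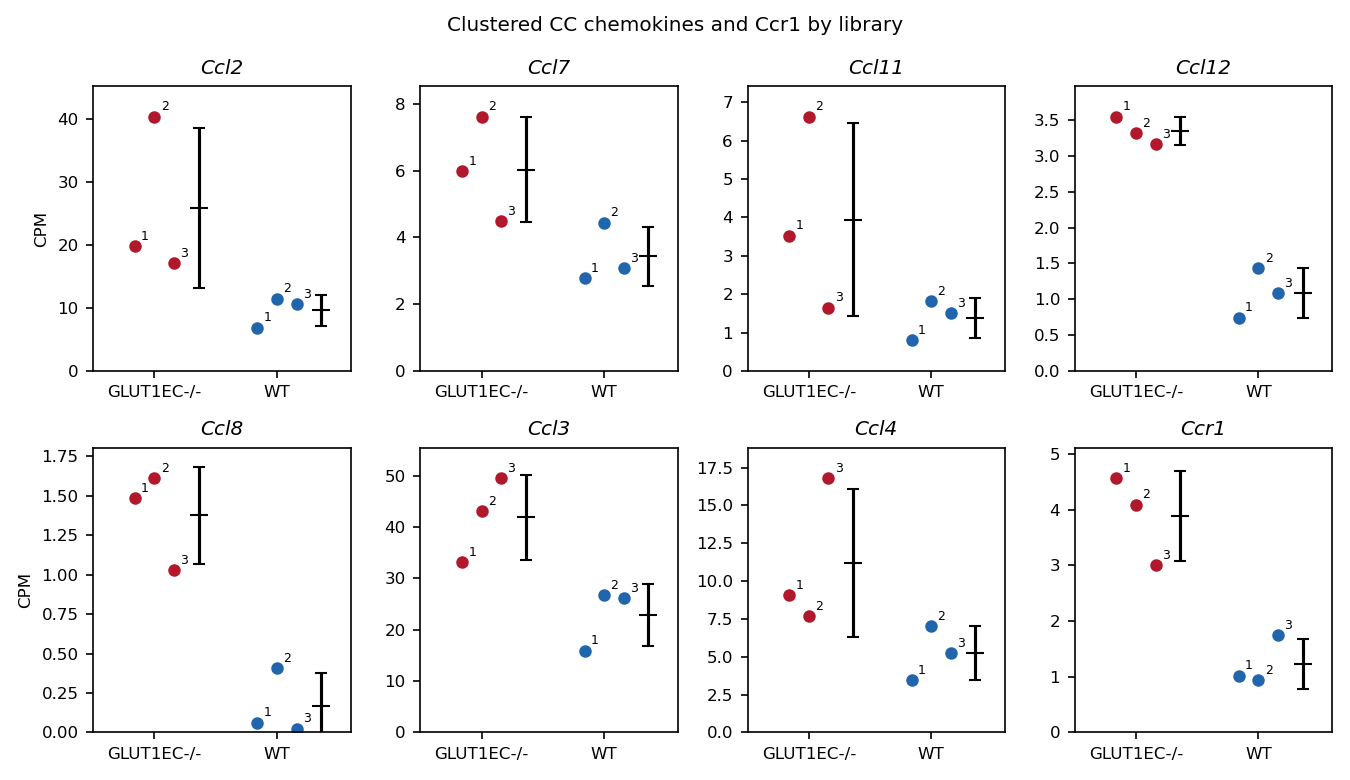
CPM (y axis, from 0) of 7 CC chemokines of chromosome 11 and of Ccr1 in each library, with replicate numbers, GLUT1EC-/- on the left and WT on the right. Black bars are the mean ± SD over 3 libraries, cut at 0 for Ccl8 in WT; the groups overlap in Ccl11 only, and GLUT1EC-/- 2 is the highest library for Ccl2, Ccl7, Ccl11 and Ccl8.

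The ligands of CXCR3, which interferon induces and which draw activated T cells, were lower by value without passing. Cxcl9, Cxcl10 and Cxcl11 lie within 44.1 kb of chromosome 5 (92321347 to 92365485). Cxcl10, the most abundant, was at 39.6, 59.4 and 26.1 CPM in GLUT1EC-/-, against 57.0, 93.1 and 39.3 CPM in WT. The groups overlapped, with a log2 fold change of -0.60 (SE 0.36, adjusted p by edgeR = 0.498). Cxcl11 was at 0.392, 0.120 and 0.406 CPM in GLUT1EC-/-, against 0.897, 1.55 and 0.567 CPM in WT, with no overlap (log2 fold change -1.69, SE 0.58, adjusted p by edgeR = 0.235). Cxcl9 was at 0.705, 0.388 and 0.460 CPM in GLUT1EC-/-, against 1.33, 3.13 and 0.148 CPM in WT, so WT 3 was the lowest of all 6 libraries and WT 2 the highest (log2 fold change -1.55, SE 0.86).

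The difference in this trio was not the same in both number series. Within the 200s the log2 differences were -0.88 for Cxcl10, -1.47 for Cxcl9 and -1.47 for Cxcl11. Within the 500s they were 0.0034, 1.23 and -1.13. Cxcr3, their receptor, had a log2 fold change of -0.73 (SE 0.56). DESeq2 also called 0 of these 4 genes, and Cxcl11 alone had an unadjusted p under 0.05 by edgeR. Cxcl11 and Cxcr3 reached the level of the filter on low counts in all WT libraries but not in all GLUT1EC-/- libraries, so they passed it through the group where they were higher.

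The window before Cxcl10, on the minus strand (chr5:92348890-92349139), is shown because its ISRE and kB site are the elements through which interferon and NF-kB are known to act. Capitals mark, in this order, the ISRE (GAAA, any 2 bases, GAAA) and the kB site (GGGA, any base, TT, any base, CC).
Cxcl10: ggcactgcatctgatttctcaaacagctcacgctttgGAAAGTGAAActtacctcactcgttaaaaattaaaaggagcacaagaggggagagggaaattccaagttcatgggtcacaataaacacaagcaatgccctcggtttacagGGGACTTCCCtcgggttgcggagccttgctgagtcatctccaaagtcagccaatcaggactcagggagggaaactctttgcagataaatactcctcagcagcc
These matches begin 213 and 103 bases before the start. An ISRE was found in 2.98% of all windows and a kB site in 0.98%, on either strand. Among the windows of the family, ISREs were also found in those of Ccl19 and Cxcl14, and kB sites in those of Cxcl1, Cxcl2, Cxcl3, Ccr3 and Ccr6.

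Cxcl1 and Cxcl2, which draw neutrophils through CXCR2, showed no difference beyond the spread between libraries. Cxcl1 was at 243, 541 and 216 CPM in GLUT1EC-/-, against 319, 369 and 351 CPM in WT. GLUT1EC-/- 2 was above and the other 2 GLUT1EC-/- libraries were below all WT libraries, and the level was 0.962 times that of WT (95% interval 0.575 to 1.61; log2 fold change -0.06, SE 0.32, adjusted p by edgeR = 0.947). Without GLUT1EC-/- 2 the log2 fold change was -0.60 and the gene was called (adjusted p by edgeR = 0.0217). In that setting 862 of all genes tested were called, against 194 with all libraries. Cxcl2 was at 117, 204 and 90.2 CPM in GLUT1EC-/-, against 118, 143 and 176 CPM in WT, where GLUT1EC-/- 2 was again the highest library (log2 fold change -0.09, SE 0.29). Cxcl3, a close relative in the same cluster, had 6, 24 and 5 counts in GLUT1EC-/-, against 0, 2 and 3 counts in WT, and was not tested. Cxcr2 had 6, 29 and 8 counts in GLUT1EC-/-, against 4, 5 and 25 counts in WT.

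Darc, the atypical receptor ACKR1 that carries chemokines across venular endothelium and also sits on red cells, was at 195, 267 and 99.7 CPM in GLUT1EC-/-, against 100.5, 147 and 234 CPM in WT. Both groups ran over much the same range (log2 fold change 0.22, SE 0.39, 95% interval of the fold 0.626 to 2.17, adjusted p by edgeR = 0.822). Its log2 difference was 0.68 within the 200s and -0.52 within the 500s. Darc shares exon positions with Cadm3 on its own strand, and Cadm3 averaged 9.14 CPM in GLUT1EC-/- and 13.05 CPM in WT. Of 11 venous endothelial markers, Darc among them, 1 rose.

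Of 13 tested genes of lymphoid homing, edgeR called 0. An unadjusted p under 0.05 was found for 1 in the higher direction (Ccl28) and 1 in the lower (Ccr7). That was a share of 15.4%, close to the 14.5% of all genes tested. DESeq2 called 1, Ccr7, which guides lymphocytes and dendritic cells towards CCL19 and CCL21. Ccr7 was at 3.52, 1.61 and 1.46 CPM in GLUT1EC-/-, against 6.22, 5.55 and 5.44 CPM in WT, with no overlap (log2 fold change -1.38, SE 0.36, adjusted p by edgeR = 0.127; adjusted p = 0.00551 by DESeq2). Its ligand Ccl19 was at 4.02, 6.42 and 5.90 CPM in GLUT1EC-/-, against 3.90, 6.37 and 6.11 CPM in WT, or 0.997 times the WT level (95% interval 0.640 to 1.55). Cxcr5, the follicle-homing receptor of B cells, had a log2 fold change of -0.77 (SE 0.37, adjusted p by edgeR = 0.395).

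Apart from Ebf1, markers of B and T cells were low in these libraries. Of 7 tested B cell markers 1 fell, 6 of 7 were lower by value and 5 had an unadjusted p under 0.05, all lower. Over all genes tested, 0.445% were called lower and 6.31% were lower with an unadjusted p under 0.05. DESeq2 called 4 of the 8 listed, all lower. Sums over the 8 were 86.3 to 111 CPM in GLUT1EC-/- and 126 to 134 CPM in WT. Most of each sum was Ebf1, at 85.5, 105 and 80.6 CPM in GLUT1EC-/-, against 117, 114 and 108 CPM in WT. Of 9 tested T and NK cell markers 1 fell (Gzma), 8 of 9 were lower by value and 3 had an unadjusted p under 0.05, all lower. Sums over the 11 listed were 9.64 to 25.4 CPM in GLUT1EC-/- and 15.6 to 21.5 CPM in WT. Library GLUT1EC-/- 1 had the highest T and NK sum and also the highest Ccr4, at 48, 2 and 3 counts in GLUT1EC-/-, against 13, 8 and 15 counts in WT. The markers Ms4a1, Fcrla, Cd8a, Nkg7 and Gzma reached the level of the filter on low counts in all WT libraries but not in all GLUT1EC-/- libraries. They therefore passed it through the group where they were higher. The part of B, T and NK cells in the values of Ccr7, Cxcr5, Ccr4 and Ccl5 was not tested.

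Ccl28, a mucosal chemokine, and Ccl17, a ligand of CCR4, had large fitted rises on few counts. Ccl28 had 36, 24 and 12 counts in GLUT1EC-/-, against 10, 1 and 7 counts in WT, with no overlap (log2 fold change 1.94, SE 0.72, adjusted p by edgeR = 0.263), and it passed the filter on low counts only through the GLUT1EC-/- libraries. Ccl17 had 12, 111 and 6 counts in GLUT1EC-/-, against 2, 14 and 8 counts in WT, and GLUT1EC-/- 2 held most of them. Its log2 fold change of 2.47 (SE 1.15) became 0.09 without that library. The other 8 tested genes of this group, Ccl22, Ccl25, Ccl27a, Cxcl14, Ccr4, Ccr8, Ccr9 and Ccr10, had log2 fold changes of -0.61 to 0.76, and in Cxcl14 the groups did not overlap. The exons of Ccl25, Ccl27a, Cxcr5, Ccr9 and Cxcl11 overlap those of genes on the other strand, and without the strand setting of the count it is not known whether reads of both were separated. Ccr9 also shares exon positions with Gm17200 on its own strand, so its count is uncertain under any strand setting.

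In all, 9 of the 48 genes were too low to test. Besides Cxcr6, Cxcr2 and Cxcl3 these were Ccr3, Ccr6, Ccl20, Ccl21a, Cxcl13 and Cxcl17, with at most 25 counts in any library. Cxcl17 had 2, 10 and 1 counts in GLUT1EC-/- and 0 in each WT library, and a WT count of 0 allows up to 0.0739 to 0.0928 CPM (3 counts, counting error only). Ccl20 had 3, 0 and 2 counts in GLUT1EC-/-, against 13, 4 and 5 counts in WT.

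**Figure D4:**
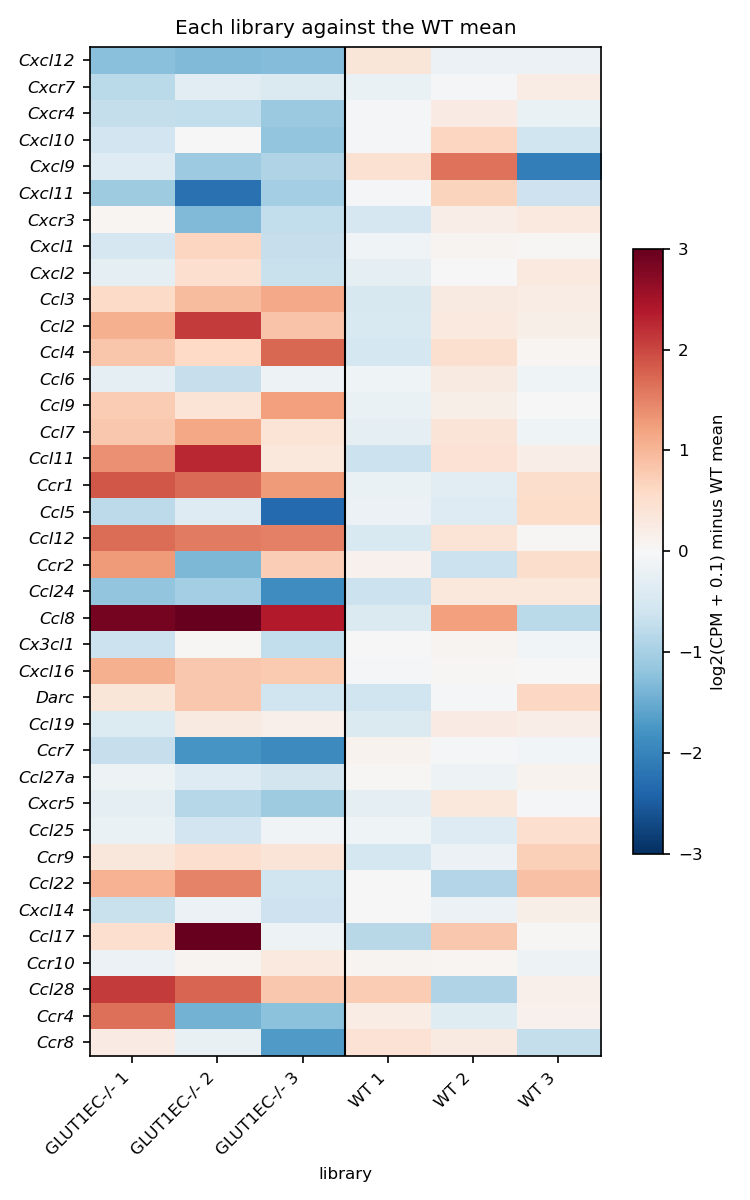
Log2(CPM + 0.1) of 38 of the 39 tested genes minus the WT mean, one column per library with GLUT1EC-/- on the left, in the order of the groups of the text, with colours limited to 3 units either way. Cxcl12 is below and Ccl12, Ccl8, Ccr1 and Cxcl16 are above the WT mean in all GLUT1EC-/- libraries, whereas Cxcl1, Cxcl2 and Ccr2 differ between GLUT1EC-/- 2 and the other 2.

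Other genes of the chemokine system gave no call by edgeR. Of 15 tested genes for further chemokines, receptors and processing enzymes, 0 were called and DESeq2 called 3 (Dpp4, Pf4 and Mmp2). An unadjusted p under 0.05 was found for 5, a share of 33.3% against 14.5% of all genes tested. Mmp2, a protease that also cleaves CXCL12 and CCL7, averaged 10.9 CPM in GLUT1EC-/- and 4.51 CPM in WT (log2 fold change 1.28, SE 0.24, adjusted p by edgeR = 0.0507). Pf4, a platelet chemokine also known from border macrophages, averaged 3.46 CPM in GLUT1EC-/- and 6.05 CPM in WT (log2 fold change -0.81, adjusted p by edgeR = 0.161).

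Of 39 genes for signalling below the receptors, 6 had an unadjusted p under 0.05, a share of 15.4% against 14.5% of all genes tested. Calls were 0 by edgeR and 1 by DESeq2. That gene was Rgs1, which switches off G protein signals of chemokine receptors in leukocytes, at 5.57 CPM in GLUT1EC-/- and 2.51 CPM in WT (log2 fold change 1.15, SE 0.22, adjusted p by edgeR = 0.0547). Of 19 genes of pathways that act on chemokine transcription, the NF-kB inhibitors Nfkbia and Tnfaip3 among them, edgeR called 0. An unadjusted p under 0.05 was found for 6 of the 19, a share of 31.6%. DESeq2 called 3 of the 19, all lower (Ifnar2, Irf7 and Irf9). The NF-kB subunit genes Nfkb1 and Rela had log2 fold changes of -0.04 (SE 0.14) and 0.03 (SE 0.23). Irf9, part of the factor that binds the ISRE, averaged 99.8 CPM in GLUT1EC-/- and 146 CPM in WT (log2 fold change -0.55, SE 0.12, adjusted p by edgeR = 0.0801). Il1r1, the receptor of interleukin-1, averaged 534 CPM in GLUT1EC-/- and 308 CPM in WT (log2 fold change 0.79, SE 0.25, adjusted p by edgeR = 0.194).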

How the data were processed

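RNA was measured in MACS-sorted, uncultured brain endothelial cells of 3 GLUT1EC-/- mice and 3 WT littermates. Per the labels' protocols, libraries were stranded mRNA libraries (Illumina TruSeq) read on a NovaSeq. Reads were aligned by the authors with STAR to GRCm38 and counted with featureCounts, per the submitters' processing notes. Tool versions, annotation and strand setting are not given in the sources used here. Raw counts per gene symbol are what was deposited.

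From these counts, edgeR 4.0.16 (R 4.3.3) fitted genotype, without covariates, to the 6 libraries. It used filterByExpr at a count of 10 and a total of 15, TMM factors, robust quasi-likelihood F tests and Benjamini-Hochberg adjustment over the 14838 genes tested, at 0.05. The biological coefficient of variation was 23.2%. Standard errors are the log2 fold change over the square root of F. P-values measure the spread between 3 libraries a group, each from its own animal by its number; PCR reads are not independent molecules, so floors of 3 counts cover counting error only. TPM used exon lengths of GENCODE M21 (basic), which may not be the annotation counted with; 22869 symbols had a length. Differences within a number series are of mean log2 CPM. Ratios used a pseudocount of 0.5.

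Genes given in full are Cxcl12 and its receptors, the called genes, the 10 most abundant by CPM and the 5 largest fitted rises and falls; others named individually were chosen after their values were seen. Of the tested genes, 1 is counted but not reported here by name. The genes and lists were chosen with earlier results of these data known. Alternatives were RLE scaling, library size alone, DESeq2 1.42.0, no filter, at least 1 CPM in 3 libraries, the number series or sex (read from Xist and Ddx3y) as a term, each library left out, a ratio pseudocount of 1 and, chosen after seeing the data, scaling to 14 endothelial identity genes. The tests were checked on simulated data.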

Additional observations from a re-analysis of the deposited data

How the results depend on the processing

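Direction held under each of up to 14 alternatives that gave a value for 32 of the 39 tested genes, Cxcl12, Cxcl16, Cxcr4 and Cxcr7 among them. The number called higher, 1 with all libraries, was 0 with library size alone, with the number series or sex as a term, and with endothelial identity scaling, 2 with no filter, 8 by DESeq2, and 0 to 6 with a library left out. The number called lower, also 1, was 0 with the number series, 2 with sex or with no filter, 4 by DESeq2, and 0 to 4 with a library left out. Cxcl12 was at -1.25 and not called with the number series, and at -1.41 to -1.12 with a library left out. Cxcr4 was called with DESeq2 (-0.86), no filter (-0.87) and sex as a term (-0.86), and was at -0.96 to -0.72 with a library left out. Calls over all genes, 194 with all libraries, moved as well: 138 with library size alone, 14 with the number series, 113 with sex, 166 with endothelial identity scaling, 246 with no filter, 879 by DESeq2, 32, 862 and 283 without GLUT1EC-/- 1, 2 and 3, and 0, 1 and 5 without WT 1, 2 and 3. The cause of these differences was not tested.

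Signs turned in 7 genes that were not called. Over the libraries left out in turn, Darc ran over -0.13 to 0.59, Ccr10 over -0.049 to 0.22, Ccl19 over -0.20 to 0.17, Cxcl1 over -0.60 to 0.18, Cxcl2 over -0.50 to 0.14, Ccr4 over -2.19 to 0.99 and Ccr2 over -0.040 to 0.99. Ccl19 was at 0.028 with endothelial identity scaling. Without GLUT1EC-/- 2, Cxcl1 and Cx3cl1 were called lower.

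No paired analysis was possible because no animal number is shared between the groups and replicate numbers only name libraries; the number series, which holds both genotypes, was fitted as a term instead. Genes under 1 CPM rest on few counts.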
